A study of Arabidopsis thaliana with 40 samples.

Results

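The root transcriptome of the Arabidopsis thaliana line taf12-t1 was compared with that of wild type. The 4 root libraries titled taf12-t1 were set against the 4 root libraries titled wt, 8 of the 40 libraries of the series. taf12-t1 is a T-DNA mutant (WiscDsLoxHs044_12E) named for TAF12, and wt is Col-0. The labels name no further allele or transgene for either group and do not say where the insertion lies. After 3 d of cold at 4 °C, untreated seedlings grew on plates of half-strength medium with 16 h of light a day at 22 °C. One label field puts the harvest at 12 d and another at 13 days from sowing, and no field gives a clock time. The other groups compared below include the 4 root libraries of nbr6-t1, a T-DNA mutant (GABI_172C03) named for NOBIRO6, which is known as the paralog TAF12B. The 4 shoot libraries each of taf12-t1 and wt are compared as well. Libraries of the remaining genotypes, titled bz1728 and nobiro6, entered the fits, which took all 20 root libraries or all 40 of the series. They thus shared in the filter on low counts, the estimate of spread and the mean level used for ranking.

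TAF12 is a subunit of TFIID, the general transcription factor that carries the TATA-binding protein and helps to place RNA polymerase II at promoters. The same histone-fold subunit is part of SAGA, a coactivator that acetylates and deubiquitinates histones. Arabidopsis has a pair of TAF12 genes, TAF12 and TAF12B, which are thought to enter these complexes as alternatives to each other.

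Levels are CPM, counts relative to the library total after TMM scaling. Each group is given as 4 library values in replicate order or as mean ± SD (n = 4). Fold changes are on the log2 scale, where 1 is a doubling, with taf12-t1 over wt and an approximate standard error. A gene was called changed at a Benjamini-Hochberg adjusted p under 0.05 in edgeR's two-sided quasi-likelihood test across all 18745 genes tested in root. Library totals ran from 3.34 to 5.31 M counts in root labelled taf12-t1 and from 4.06 to 8.2 M in root labelled wt. Along the first principal component (56.68% of the variance) the 4 taf12-t1 libraries lay on the opposite side from the 4 wt libraries. On the second (10.19%), replicate 2 of taf12-t1 (24.9) and replicate 3 (-34) lay apart from the other libraries, so single-library effects are given where they decide a call. The root label was matched by its markers: the root hair list summed to 2445 to 2855 CPM in taf12-t1 root and 2447 to 2630 CPM in wt root, against 15.3 to 36.3 CPM in the shoot libraries of taf12-t1 and 15.8 to 18.4 CPM in those of wt. No label says that replicates came from separate cultures or plants, so p-values measure only the spread between these libraries, which may be technical.

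TAF12 itself was not lower in root labelled taf12-t1. TAF12 (AT3G10070) had 19.9, 18.3, 26.3 and 17.98 CPM in the libraries labelled taf12-t1, against 9.75, 10.3, 10.9 and 9.83 CPM in wt. The groups did not overlap, and all 4 libraries labelled taf12-t1 lay above every wt library. The log2 fold change was 1.005 ± 0.17 (adjusted p = 8.83e-06). Per length, TAF12 averaged 14.2 ± 2.51 TPM in root labelled taf12-t1 and 7.72 ± 0.399 TPM in wt root. In shoot the same genotype label went with less TAF12, 7.21, 6.84, 9.65 and 10.9 CPM in taf12-t1 and 11.9, 12.8, 14.2 and 11.2 CPM in wt. The counts cover the whole transcript model, so full-length and partial transcripts of an insertion allele cannot be told apart. Whether the root libraries carry the insertion was not tested, and every direction below belongs to libraries named by this label.

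Transcripts that marked the genotype label in both tissues were also read, chosen after their values were seen. AT1G17960, annotated as a threonyl-tRNA synthetase, had 99.3, 92.3, 95.02 and 81.3 CPM in root labelled taf12-t1, against 7.25, 5.38, 6.48 and 5.24 CPM in wt root. In shoot it had 18.8, 27.6, 24.3 and 22.5 CPM in taf12-t1 and 2.23, 1.102, 1.11 and 1.69 CPM in wt. MRD1 (AT1G53480) had 25.1, 21.99, 19.6 and 19.6 CPM in root labelled taf12-t1 and 0.25, 0, 0.209 and 0 CPM in wt root, and in shoot 8.16 to 13.4 CPM in taf12-t1 against 0.169 to 0.413 CPM in wt. Thus both transcripts separated the libraries by genotype label in the same direction in root and in shoot, with no overlap.

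The paralog TAF12B (AT1G17440) did not pass the test. It had 53.4, 46.5, 54.6 and 55.6 CPM in root labelled taf12-t1 and 45.5, 53.2, 56.8 and 56.8 CPM in wt root, and the groups overlapped. The log2 fold change was -0.02 ± 0.09 (adjusted p = 0.882), and its sign turned in 3 of the fits that left out 1 library. TAF12B was the more abundant of the pair per length in both groups, at 25.9 ± 1.89 TPM in taf12-t1 and 28.8 ± 2.99 TPM in wt. Of the annotated neighbours, AT3G10060 overlaps TAF12 and had 6.93 ± 2.24 CPM in taf12-t1 and 8.66 ± 0.677 CPM in wt (log2 fold change -0.34 ± 0.21, adjusted p = 0.212, and 0.0434 without replicate 2 of taf12-t1). The counting is not stated to use strand, so reads of this overlapping pair may be shared. OMR1 (AT3G10050), a threonine deaminase of isoleucine synthesis, rose by 0.48 ± 0.08 (adjusted p = 1.66e-05). AT3G10080, on the other side, rose by 0.54 ± 0.19 (adjusted p = 0.0238), a call lost without wt replicate 2 (0.0949) and without taf12-t1 replicate 2 (0.0985).

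**Figure D1:**
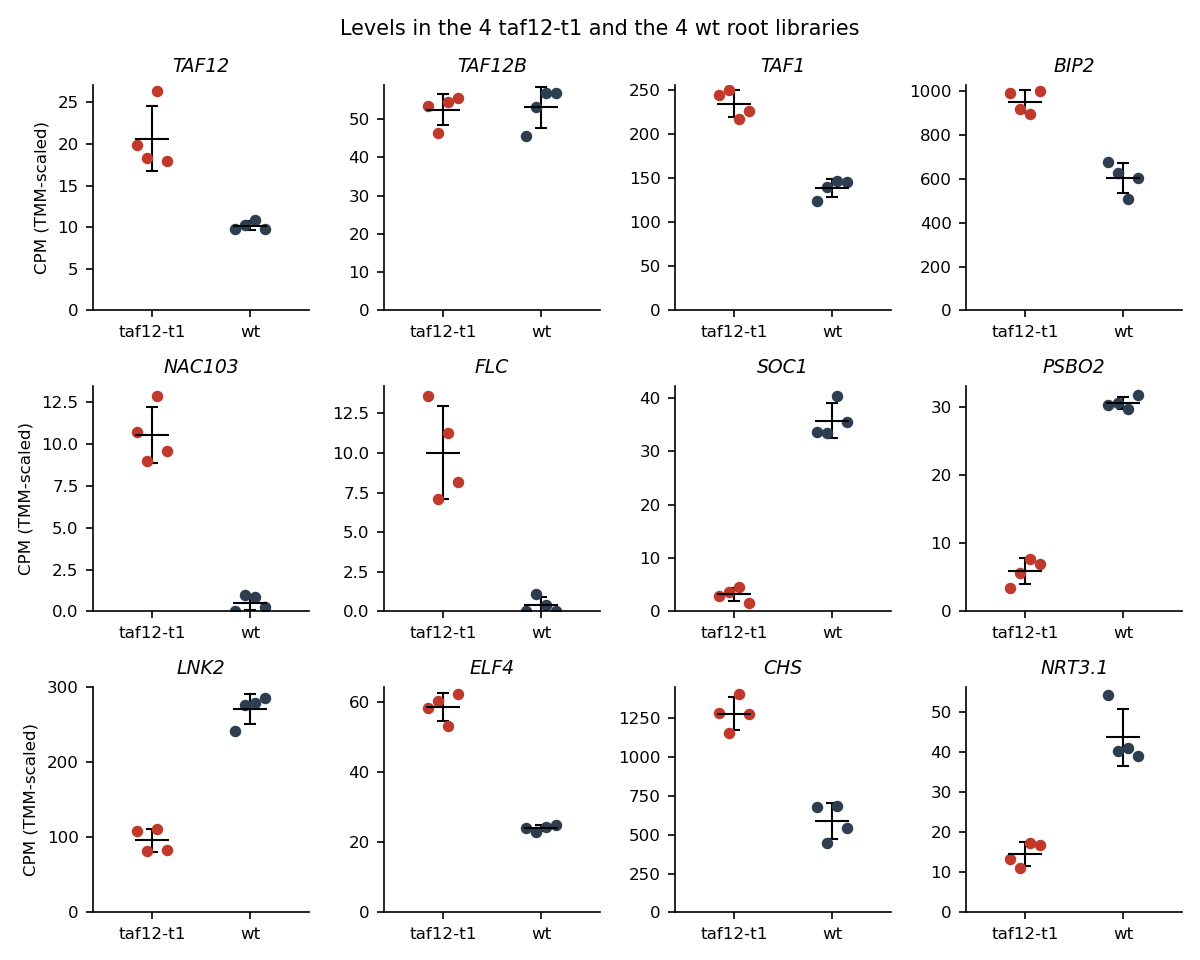
Levels of 12 genes in CPM (linear axes from 0) in the 4 root libraries labelled taf12-t1 (red, left) and the 4 wt root libraries (dark, right), with the mean and SD in black. TAF12B overlaps between the groups, and the other 11 genes do not.

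A large share of the root transcriptome differed between the labels. Of the 18745 genes tested, 7356 (39.2%) were called, 3651 higher (19.5%) and 3705 lower (19.8%) in taf12-t1. Most differences were small: the median absolute log2 fold change of called genes was 0.5, and the median over all genes tested was 0.001. At least 2-fold changes were called for 1077 genes (5.75%), of which 328 were higher (1.75%) and 749 lower (4%). The 4 taf12-t1 and the 4 wt values did not overlap for 6665 genes (35.6%). The 35 gene lists hold 621 members, of which 620 are in the files and 553 passed the filter on low counts. Among the 553, 140 were higher and 136 lower, so 49.9% were called, against 39.2% of all genes. The list counts below stand beside these shares of all genes, 19.5% higher and 19.8% lower. Under 39.2% of members were called in the Casparian strip, suberin, meristem and root cap, root hair and epidermal fate lists. The same holds for the iron deficiency, iron storage, jasmonate, cytokinin, aliphatic glucosinolate, root triterpene and SWEET lists.

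**Figure D2:**
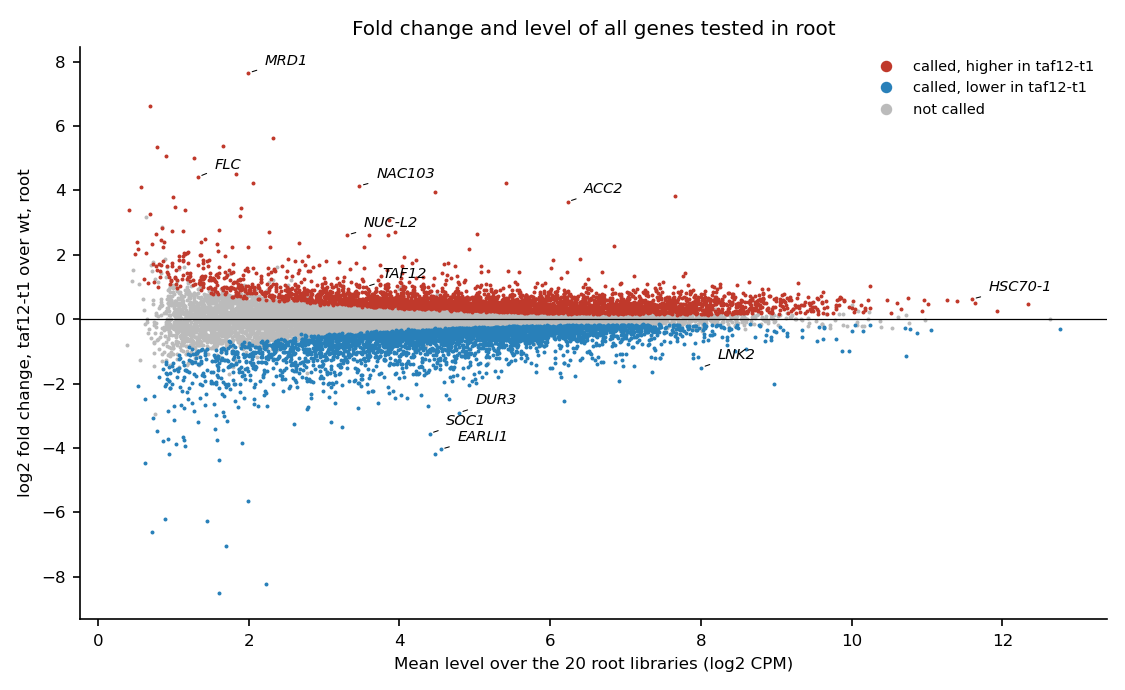
Log2 fold change of taf12-t1 over wt in root (y axis) against the mean level over the 20 root libraries in log2 CPM (x axis) for the 18745 genes tested. Called genes that were higher (red, 3651) and lower (blue, 3705) are about equally many, and those past 2-fold are more often lower (749) than higher (328).

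Of 33 TFIID and SAGA subunits tested, TAF12 included, 12 were higher and 4 lower, with a median of 0.11, against 39.2% of all genes called in either direction. TAF1 (AT1G32750), the largest TFIID subunit and its scaffold, had 244, 250, 217 and 226 CPM in root labelled taf12-t1, against 124, 139.7, 147 and 146 CPM in wt. The groups were well apart, and the log2 fold change was 0.75 ± 0.07 (adjusted p = 6.23e-11). TAF2 (AT1G73960), which contacts promoter DNA, averaged 96.05 ± 2.27 CPM in taf12-t1 and 58.4 ± 3.88 CPM in wt (0.71 ± 0.08, adjusted p = 1.23e-08). TAF4 (AT5G43130), the histone-fold partner of TAF12, averaged 100.3 ± 6.19 CPM in taf12-t1 and 66.6 ± 2.54 CPM in wt (0.59 ± 0.07, adjusted p = 3.8e-08). The pair of TATA-binding proteins went opposite ways. TBP1 (AT3G13445) had 49.1, 49.9, 47.8 and 49.6 CPM in taf12-t1 and 29.01, 31.6, 34.9 and 29.4 CPM in wt, a rise of 0.66 ± 0.09 (adjusted p = 4.11e-07). TBP2 (AT1G55520) had 19.6, 24.2, 21.2 and 24.3 CPM in taf12-t1 and 32.8, 29.1, 32.2 and 33.2 CPM in wt, a change of -0.4977 ± 0.12 (adjusted p = 0.000875). Neither gene's groups overlapped. TAF6B (AT1G54360), the paralog of the histone-fold subunit TAF6, was also lower (-0.41 ± 0.1002, adjusted p = 0.00137), and so was AT4G29790, which the list holds by locus code (-0.43 ± 0.08, adjusted p = 2.11e-05). In shoot (levels and changes there come from the fit of all 40 libraries) the log2 fold changes had the same sign for TAF1 (1.17), TAF2 (0.91), TAF4 (0.62), TBP1 (0.88) and TBP2 (-1.12), while TAF12 had -0.54.

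Chaperones that fold proteins in the endoplasmic reticulum (ER) rose together. Of 22 members, 16 were higher and none was lower (0), with a median of 0.38. BIP2 (AT5G42020), the ER Hsp70, had 992, 920.2, 895 and 1002 CPM in root labelled taf12-t1 and 676, 624, 509.9 and 603 CPM in wt, and every taf12-t1 library lay above every wt library. Its log2 fold change was 0.66 ± 0.07 (adjusted p = 6.65e-09). BIP1 (AT5G28540) averaged 906 ± 68.5 CPM in taf12-t1 and 593 ± 55.2 CPM in wt (0.61 ± 0.07, adjusted p = 5.28e-09). BIP1 and BIP2 are near-identical and shared reads in the authors' counting, so their separate values are uncertain. PDIL1-1 (AT1G21750), a protein disulfide isomerase, averaged 464 ± 16.5 CPM in taf12-t1 and 325 ± 22.6 CPM in wt (0.52 ± 0.06, adjusted p = 2.02e-08). CNX1 (AT5G61790), the membrane lectin chaperone calnexin, averaged 648 ± 35.2 CPM in taf12-t1 and 443 ± 35.4 CPM in wt (0.55 ± 0.06, adjusted p = 2.38e-08). The 6 members not called ran from -0.13 to 0.16.

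The unfolded protein response raises such chaperones when unfolded protein gathers in the ER, through the membrane-bound factors BZIP17 and BZIP28 and through IRE1, which splices BZIP60 mRNA. Its 15 genes did not move one way in root labelled taf12-t1: 5 were higher and 4 lower, with a median of 0.03. The largest rises were in genes near 0 in wt. NAC103 (AT5G64060), a transcription factor of this response, had 10.7, 8.98, 12.8 and 9.602 CPM in taf12-t1 and 0, 0.979, 0.836 and 0.262 CPM in wt (4.14 ± 0.33, adjusted p = 8.01e-12). SEC31A (AT1G18830), a coat protein of ER export, had 2.31, 5.58, 4.49 and 5.11 CPM in taf12-t1 and 0.25, 0, 0.209 and 0.655 CPM in wt (3.84 ± 0.54, adjusted p = 7.01e-06). BIP3 (AT1G09080), the stress-induced BiP, had 18 counts over the 4 taf12-t1 libraries and 0 over the 4 wt libraries, which is at least 10.03-fold higher against 3 counts over the group. These rises stood beside smaller changes of the sensors. BZIP17 (AT2G40950) (0.41 ± 0.09, adjusted p = 0.000341) and BZIP60 (AT1G42990) (0.28 ± 0.08, adjusted p = 0.00786) were higher. IRE1A (AT2G17520) was lower (-0.38 ± 0.11, adjusted p = 0.00509), as was TIN1 (AT5G64510) (-1.27 ± 0.23, adjusted p = 3.83e-05), named as induced by tunicamycin, a drug that blocks glycosylation in the ER. BZIP28 had -0.03 ± 0.09 (adjusted p = 0.831). With only the 2 compared groups in the fit, SEC31A and BIP3 did not pass the filter on low counts and were not tested. Therefore 3 rather than 5 of the 15 genes were called higher there.

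Nuclear genes for photosynthesis had the lowest median of the 35 lists. Of 34 members tested, 29 were lower and 0 higher, with a median of -1.34. PSBO2 (AT3G50820), a subunit of the water-splitting complex, had 3.46, 5.58, 7.704 and 6.95 CPM in root labelled taf12-t1 and 30.3, 30.6, 29.7 and 31.7 CPM in wt. The wt libraries were close to each other and far above all taf12-t1 libraries (-2.35 ± 0.17, adjusted p = 1.06e-12). Its partner PSBO1 (AT5G66570) had 34.6, 29.4, 29.9 and 34.1 CPM in taf12-t1 and 117, 95.2, 107 and 119 CPM in wt (-1.76 ± 0.13, adjusted p = 4.7e-10). LHCA4 (AT3G47470), an antenna protein of photosystem I, had 28.3, 30.4, 26.3 and 22.3 CPM in taf12-t1 and 71.5, 74.03, 75.2 and 79.8 CPM in wt (-1.51 ± 0.0974, adjusted p = 4.88e-14). PSAF (AT1G31330), which docks plastocyanin at photosystem I, averaged 13.4 ± 1.78 CPM in taf12-t1 and 38.6 ± 5.49 CPM in wt (-1.53 ± 0.14, adjusted p = 1.02e-10). The 5 members not called were LHCB1.1 (0.04) and the 4 genes of the small Rubisco subunit, RBCS1A (-0.51), RBCS1B (0.44), RBCS3B (0.42) and RBCS2B (1.88). These were named after their values were seen, RBCS1B and RBCS3B share reads, and 1 member was called higher without replicate 1 or replicate 3 of taf12-t1.

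Photosynthesis transcripts in a root sample can come from root plastids or from shoot tissue, and with bulk RNA fewer cells of a type and less RNA per cell cannot be told apart. The list summed to 424.4 to 532.1 CPM in taf12-t1 root and 1109 to 1190 CPM in wt root, against 114900 to 139200 CPM in taf12-t1 shoot and 123800 to 144300 CPM in wt shoot. The part of shoot tissue in this difference was not tested. Plastid-encoded transcripts made up 0.314 to 0.345% of counts in taf12-t1 root and 0.337 to 0.372% in wt root. Genes that direct greening and chlorophyll synthesis were lower as well, 5 of 8 members, with none higher (0) and a median of -0.60. CHLH (AT5G13630), a subunit of the magnesium chelatase, averaged 92.6 ± 4.35 CPM in taf12-t1 and 168 ± 18.5 CPM in wt (-0.85 ± 0.09, adjusted p = 2.99e-08). CAO (AT1G44446), which makes chlorophyll b, averaged 9.57 ± 2.03 CPM in taf12-t1 and 17.3 ± 1.73 CPM in wt (-0.89 ± 0.15, adjusted p = 1.09e-05). GLK2 (AT5G44190), a transcription factor for chloroplast genes, had 6.35, 7.74, 6.099 and 8.17 CPM in taf12-t1 and 10.5, 13.7, 14.6 and 12.6 CPM in wt (-0.85 ± 0.17, adjusted p = 0.000165). GUN4 (AT3G59400), the activator of the chelatase, had 2.89, 2.48, 0.642 and 3.88 CPM in taf12-t1 and 7.001, 6.24, 7.11 and 7.73 CPM in wt (-1.41 ± 0.34, adjusted p = 0.0014).

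**Figure D3:**
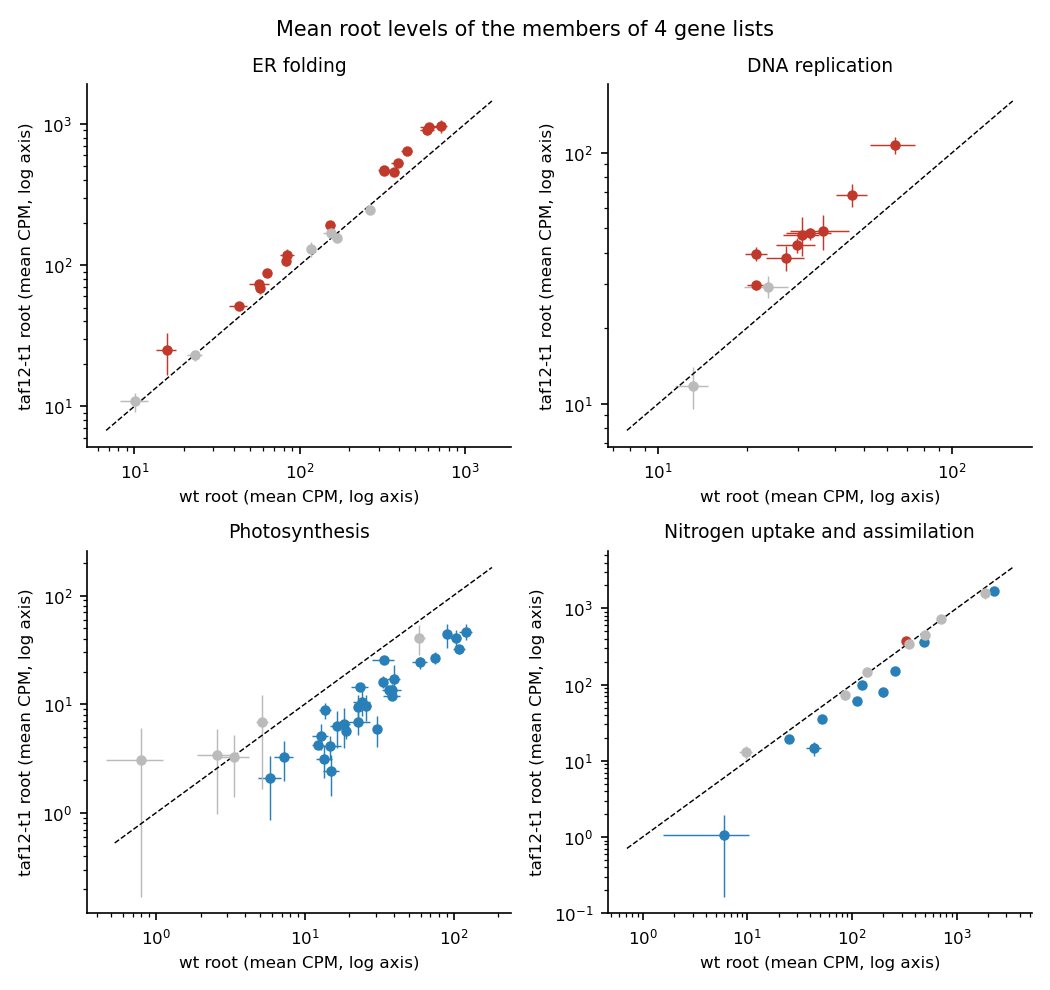
Mean level in root labelled taf12-t1 (y) against wt root (x), both in CPM on log axes, for the members of 4 lists; bars are SD over 4 libraries, the dashed line marks equal levels, and red, blue and grey are called higher, called lower and not called. Most ER folding and DNA replication members lie above the line (16 of 22 and 9 of 11 called higher), and 29 of 34 photosynthesis and 10 of 18 nitrogen members were called lower.

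The circadian clock is a set of interlocked repressors and activators whose transcripts peak at set times of day. Of its 20 genes, 15 were called, 7 higher and 8 lower. Lower in root labelled taf12-t1 were genes of different phases. LNK2 (AT3G54500), a coactivator of the RVE factors, had 108, 82.1, 110.4 and 83.2 CPM in taf12-t1 and 241, 276, 279 and 285 CPM in wt, with no library near the other group (-1.502 ± 0.08, adjusted p = 5.41e-16). RVE8 (AT3G09600), its morning-phased partner, had 26.9, 25.7, 30.8 and 25.7 CPM in taf12-t1 and 61.01, 59.5, 62.9 and 68.5 CPM in wt (-1.22 ± 0.12, adjusted p = 2.65e-09). PRR7 (AT5G02810), a repressor of the morning genes, had 19.1, 13.6, 21.2 and 13.9 CPM in taf12-t1 and 33.8, 50.5, 44.9 and 44.95 CPM in wt (-1.402 ± 0.13, adjusted p = 9.46e-11). CCA1 (AT2G46830), the morning repressor, averaged 149 ± 14.4 CPM in taf12-t1 and 239 ± 24.3 CPM in wt (-0.69 ± 0.09, adjusted p = 1.57e-06). GI (AT1G22770), an evening-phased regulator that was named after its values were seen, had 81.4, 89.8, 60.4 and 85.4 CPM in taf12-t1 and 116, 105, 106 and 122.9 CPM in wt, and was lower too (-0.4981 ± 0.09, adjusted p = 3.8e-05).

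Among the higher genes were ELF4 and BOA, while GI was lower, and no test of a split by phase was made. ELF4 (AT2G40080), a subunit of the evening complex, had 58.3, 60.4, 53.3 and 62.3 CPM in root labelled taf12-t1 and 24, 22.9, 24.2 and 24.9 CPM in wt (1.29 ± 0.12, adjusted p = 3.29e-10). BOA (AT5G59570), the paralog of the evening complex factor LUX, had 17.3, 18.6, 14.8 and 14.1 CPM in taf12-t1 and 2.75, 5.26, 4.597 and 4.98 CPM in wt (1.81 ± 0.2043, adjusted p = 1.08e-08). GRP7 (AT2G21660), a clock-driven RNA-binding protein, had 812, 700, 718 and 709.5 CPM in taf12-t1 and 436, 445, 369.7 and 446 CPM in wt (0.79 ± 0.09, adjusted p = 2.32e-08). For all 3 genes every taf12-t1 library lay above every wt library. The order in which groups were harvested is not in the labels, so the genotype label and the time of day of harvest cannot be told apart. In shoot ELF4 changed by 4.44 and GRP7 by 2.41, and the root change was smaller than the shoot change by the test of the difference (-3.15 ± 0.3024 for ELF4, adjusted p = 3.33e-10; -1.61 ± 0.22 for GRP7, adjusted p = 1.91e-06). PRR7 was unlike between the tissues too (-1.31 ± 0.18, adjusted p = 1.24e-06), while LNK2 had -0.11 ± 0.13 (adjusted p = 0.631).

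**Figure D4:**
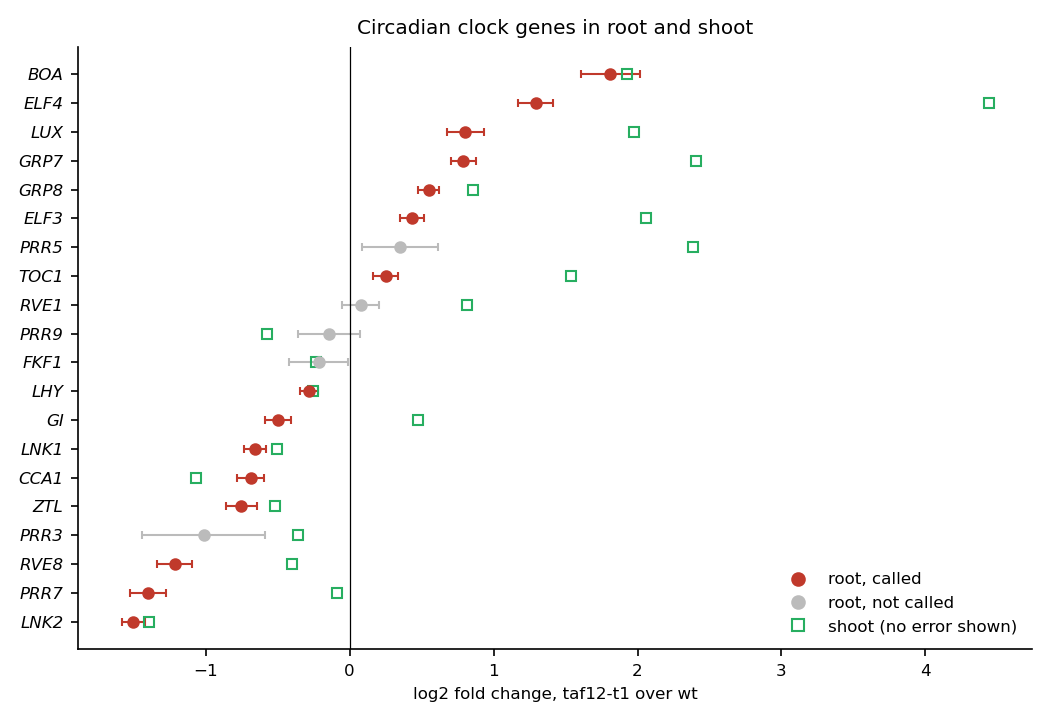
Log2 fold change of taf12-t1 over wt for 20 clock genes, in root (circles with standard error, red where called) and in shoot (open squares, no error drawn). In root 8 genes were called lower, down to LNK2 at -1.502, and 7 higher, up to BOA at 1.81.

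Regulators of flowering time moved in opposite directions. FLC (AT5G10140), the MADS-box repressor of flowering, had 13.6, 7.12, 11.2 and 8.17 CPM in root labelled taf12-t1 and 0, 1.101, 0.418 and 0 CPM in wt, where 2 libraries held 0 counts. The log2 fold change was 4.42 ± 0.52 (adjusted p = 1.33e-07). SOC1 (AT2G45660), a flowering integrator that FLC is known to repress, had 2.89, 3.72, 4.49 and 1.63 CPM in taf12-t1 and 33.5, 33.4, 40.3 and 35.5 CPM in wt (-3.55 ± 0.25, adjusted p = 3.75e-11). The groups were far apart for both genes. In total 3 of 10 members were higher and 3 lower, with a median of 0.10. SVP (AT2G22540), which represses flowering together with FLC, was lower (-0.78 ± 0.17, adjusted p = 0.000512). FVE (AT2G19520), of the autonomous pathway, was higher (0.28 ± 0.08, adjusted p = 0.00356), as was FLM (AT1G77080), a relative of FLC (0.34 ± 0.09, adjusted p = 0.00379). In shoot FLC changed by 2.97 and SOC1 by -0.74. The SOC1 change differed between root and shoot (-2.804 ± 0.29, adjusted p = 1.98e-09), and the FLC change was not shown to differ (1.45 ± 0.68, adjusted p = 0.129), except without wt root replicate 2, where it did (3.075, adjusted p = 0.0123).

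Genes of cell division rose in root labelled taf12-t1. For DNA replication 9 of 11 members were higher and none lower (0), with a median of 0.52. PCNA1 (AT1G07370), the sliding clamp of DNA polymerase, had 42.1, 35.9, 39.5 and 40.5 CPM in taf12-t1 and 23.5, 22.8, 20.5 and 19.5 CPM in wt (0.88 ± 0.11, adjusted p = 1.48e-07). TSO2 (AT3G27060), the small subunit of ribonucleotide reductase, had 117, 108, 96.6 and 107 CPM in taf12-t1 and 76.3, 64.2, 49.1 and 65.5 CPM in wt (0.75 ± 0.09, adjusted p = 1.33e-07). Both genes were above wt in every library. The helicase subunits MCM2 (AT1G44900) (0.56 ± 0.09, adjusted p = 5.54e-06) and MCM5 (AT2G07690) (0.53 ± 0.1005, adjusted p = 6.79e-05) rose as well. For mitosis 9 of 17 were higher and none lower (0), with a median of 0.30. CYCB1;4 (AT2G26760), a mitotic cyclin, averaged 39.9 ± 4.81 CPM in taf12-t1 and 23.5 ± 3.87 CPM in wt (0.77 ± 0.12, adjusted p = 6.06e-06). CYCB1;2 (AT5G06150), of the same cyclin class, rose by 0.52 ± 0.11 (adjusted p = 0.000176). KN (AT1G08560), the syntaxin that builds the cell plate, averaged 62.2 ± 2.6 CPM in taf12-t1 and 42.5 ± 3.38 CPM in wt (0.55 ± 0.09, adjusted p = 9.87e-06). CDC20.1 (AT4G33270), an activator of the anaphase-promoting complex that shares reads with a copy, rose by 0.6014 ± 0.1038 (adjusted p = 2.45e-05).

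Markers of the root tip were measured beside these genes. The meristem and root cap list had 3 of 11 members higher and 0 lower, with a median of 0.45, and summed to 99.8 to 130.8 CPM in root labelled taf12-t1 and 78.0 to 98.6 CPM in wt. The part of meristem size in the rise of division genes was not tested. PLT2 (AT1G51190), a stem cell factor, had 10.7, 6.195, 7.06 and 12.1 CPM in taf12-t1 and 5.75, 6.73, 4.81 and 5.64 CPM in wt, and the groups overlapped (0.67 ± 0.21, adjusted p = 0.00964, lost without taf12-t1 replicate 4 (0.117)). WOX5 (AT3G11260), of the quiescent centre, had 2.31, 3.72, 1.605 and 2.66 CPM in taf12-t1 and 1, 1.47, 0.836 and 0.917 CPM in wt (1.23 ± 0.39, adjusted p = 0.0117, lost without taf12-t1 replicate 2 (0.0602)). PLT3 (AT5G10510) rose by 0.45 ± 0.15 (adjusted p = 0.0213, lost without wt replicate 3 (0.0684), without taf12-t1 replicate 1 (0.0512) and without taf12-t1 replicate 4 (0.173)). SMB (AT1G79580), a root cap factor, had 0.49 ± 0.21 (adjusted p = 0.0554), and was called without wt replicate 2 (0.0175) or taf12-t1 replicate 2 (0.0443) and with only the compared groups in the fit (0.0425). Without replicate 4 of taf12-t1 only 1 member of the list was higher.

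The called genes of the vascular and endodermal lists were higher, beside 19.5% of all genes called higher and 19.8% called lower. Of 11 xylem and phloem genes 5 were higher and 0 lower, with a median of 0.27. APL (AT1G79430), the regulator of phloem identity, had 44.5, 42.4, 32.1 and 40.7 CPM in root labelled taf12-t1 and 21, 21.9, 22.1 and 22.1 CPM in wt, with the wt libraries tightly grouped (0.87 ± 0.12, adjusted p = 4.25e-07). LAC4 (AT2G38080), a laccase of xylem lignin, rose by 0.57 ± 0.12 (adjusted p = 0.000669). XCP1 (AT4G35350), a xylem protease, rose by 0.48 ± 0.15 (adjusted p = 0.0193), and the call was lost without wt replicate 3 (0.0536), without taf12-t1 replicate 2 (0.0704) and without taf12-t1 replicate 4 (0.0689). CESA8 (AT4G18780), a cellulose synthase of secondary walls, rose by 0.27 ± 0.09819 (adjusted p = 0.0279), and the call was lost without wt replicate 1 (0.0545), without wt replicate 3 (0.063), without taf12-t1 replicate 1 (0.0669), without taf12-t1 replicate 2 (0.0806) and without taf12-t1 replicate 4 (0.0999). Without replicate 3 of wt, or replicate 2 or 4 of taf12-t1, 2 xylem and phloem genes were higher, and without replicate 2 of taf12-t1 also 1 was lower.

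The Casparian strip and suberin seal the endodermis. For the strip 5 of 13 members were higher and 0 lower, with a median of 0.18 and a called share under the 39.2% of all genes. CASP5 (AT5G15290), a membrane scaffold of the strip, had 16.5, 27.3, 25.7 and 19.2 CPM in root labelled taf12-t1 and 6.25, 8.44, 5.22 and 5.77 CPM in wt (1.74 ± 0.22, adjusted p = 4.48e-07). SCR (AT3G54220) and SHR (AT4G37650), the factors that specify the endodermis, rose by 0.39 ± 0.09 (adjusted p = 0.00105) and by 0.35 ± 0.09893 (adjusted p = 0.00484). ESB1 (AT2G28670), a dirigent-like protein of the strip, rose by 0.19 ± 0.07 (adjusted p = 0.0332), and the call was lost with no filter on low counts (0.0601), without wt replicate 1 (0.0973), without wt replicate 2 (0.0862), without wt replicate 4 (0.0612), without taf12-t1 replicate 3 (0.124) and without taf12-t1 replicate 4 (0.113). For suberin 6 of 17 were higher and 0 lower, with a median of 0.22 and a called share also under that of all genes. ABCG20 (AT3G53510) and ABCG2 (AT2G37360), transporters of suberin, rose by 0.7045 ± 0.16 (adjusted p = 0.000644) and by 0.4958 ± 0.11 (adjusted p = 0.00098). FAR1 (AT5G22500), a fatty alcohol reductase, rose by 0.38 ± 0.11 (adjusted p = 0.00612, lost without taf12-t1 replicate 4 (0.0504)), and GPAT7 (AT5G06090), an acyltransferase, by 0.55 ± 0.18 (adjusted p = 0.0136, lost without wt replicate 2 (0.0513)). The strip count was 3 with no filter on low counts and without wt replicate 1, 2 or 4 or taf12-t1 replicate 3, and without wt replicate 2 the suberin list had 3 higher and 1 lower. With only the compared groups in the fit 1 suberin gene was lower as well.

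The root hair list split. Of 27 members 4 were higher and 4 lower, with a median of 0.10. RSL2 (AT4G33880), a factor that promotes hair growth, had 7.796, 13.9, 18.3 and 8.58 CPM in root labelled taf12-t1 and 23.8, 27.5, 33.4 and 22.5 CPM in wt, with no overlap (-1.18 ± 0.23, adjusted p = 0.000361). IRE (AT5G62310), a kinase of hair elongation, had 9.82, 11.5, 10.6 and 13.3 CPM in taf12-t1 and 20.5, 17.99, 20.9 and 16.5 CPM in wt (-0.71 ± 0.14, adjusted p = 0.000116). Higher were RHD2 (AT5G51060), the NADPH oxidase of growing hairs (0.33 ± 0.08, adjusted p = 0.00157), and EXT12 (AT4G13390), an extensin of the cell wall (0.99 ± 0.22, adjusted p = 0.00201). The epidermal fate list had 1 of 7 higher, GL2 (AT1G79840) (0.35 ± 0.14, adjusted p = 0.0358), and 1 lower, GL3 (AT5G41315) (-0.52 ± 0.19, adjusted p = 0.0297). The GL2 call was lost with no filter on low counts (0.0639), in DESeq2 (0.0632), without wt replicate 2 (0.0711), without wt replicate 3 (0.0722), without wt replicate 4 (0.0612), without taf12-t1 replicate 1 (0.13) and without taf12-t1 replicate 2 (0.0597), and the GL3 call without wt replicate 2 (0.0627), without wt replicate 4 (0.0861), without taf12-t1 replicate 2 (0.109) and without taf12-t1 replicate 4 (0.122). The count of higher root hair genes was 2 without wt replicate 2 or 4 or taf12-t1 replicate 4 and 9 with only the compared groups in the fit, and the count of lower ones was 2 without wt replicate 2.

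Nutrient lists moved in different directions. Nitrogen uptake and assimilation had 10 of 18 members lower and 1 higher, with a median of -0.37. NRT3.1 (AT5G50200), the partner protein of high-affinity nitrate transporters, had 13.3, 11.2, 17.3 and 16.8 CPM in root labelled taf12-t1 and 54.3, 40.4, 41.2 and 39.1 CPM in wt, where replicate 1 was the highest. Its log2 fold change was -1.55 ± 0.15 (adjusted p = 6.88e-10), against 0.93 in shoot, and the difference was -2.48 ± 0.3951 (adjusted p = 1.3e-05). AMT1;3 (AT3G24300), an ammonium transporter of the root, had 67.6, 91.1, 81.2 and 75.6 CPM in taf12-t1 and 197, 196, 193 and 209.6 CPM in wt (-1.34 ± 0.16, adjusted p = 4.78e-06). Its relative AMT1;2 (AT1G64780) averaged 149 ± 14.4 CPM in taf12-t1 and 261 ± 23.8 CPM in wt (-0.81 ± 0.11, adjusted p = 6.71e-06). LBD39 (AT4G37540), a nitrogen-responsive repressor, had -0.57 ± 0.09 (adjusted p = 7.84e-06). The 1 member that rose was GLN1;1 (AT5G37600), a cytosolic glutamine synthetase (0.19 ± 0.06, adjusted p = 0.0164), and it was lost without wt replicate 2 (0.0754). No member of the list was then higher (0), and 2 were with only the compared groups in the fit.

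Sulfur deficiency markers were lower in 8 of 16 cases and higher in 0, with a median of -0.57. SULTR4;2 (AT3G12520), which releases sulfate from the vacuole, had 16.8, 13.9, 14.4 and 19.6 CPM in root labelled taf12-t1 and 37.5, 33.6, 35.7 and 33.03 CPM in wt (-1.08 ± 0.13, adjusted p = 2.93e-08). LSU1 (AT3G49580), a small protein named for its response to low sulfur, had 8.66, 7.43, 13.8 and 11.6 CPM in taf12-t1 and 25, 24.5, 27.2 and 33.7 CPM in wt (-1.41 ± 0.17, adjusted p = 5.07e-08). ATSDI1 (AT5G48850), known to restrain glucosinolate synthesis when sulfur is short, had 9.53, 15.2, 19.9 and 18.8 CPM in taf12-t1 and 41.3, 46.4, 35.5 and 44.3 CPM in wt (-1.4 ± 0.1984, adjusted p = 9.19e-06). For each of these genes all taf12-t1 libraries lay below all wt libraries. LSU4 (AT5G24655) had -1.59 ± 0.26 (adjusted p = 7.86e-06).

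Phosphate starvation genes were higher in 11 of 22 cases and lower in 2, with a median of 0.49. SQD1 (AT4G33030), which makes the sulfolipid that replaces phospholipids, had 48.8, 56.7, 43.98 and 46.8 CPM in root labelled taf12-t1 and 22.8, 33.8, 20.5 and 24.1 CPM in wt (0.92 ± 0.13, adjusted p = 2.12e-06). PS2 (AT1G73010), a phosphatase induced by phosphate starvation, had 23.96, 30.97, 14.8 and 22.1 CPM in taf12-t1 and 7.75, 10.5, 7.94 and 8.91 CPM in wt (1.35 ± 0.26, adjusted p = 0.000301). GDPD1 (AT3G02040), a glycerophosphodiesterase, had 56.3, 81.2, 69.3 and 54.8 CPM in taf12-t1 and 18, 43.1, 29.7 and 23.1 CPM in wt (1.14 ± 0.23, adjusted p = 0.00107). The wt libraries varied among themselves in GDPD1, and the groups still did not overlap. PHT1;1 (AT5G43350), the main phosphate uptake transporter, went the other way, 241, 312, 278 and 280.3 CPM in taf12-t1 and 478, 566, 549 and 514 CPM in wt (-0.92 ± 0.11, adjusted p = 1.07e-06). PHT1;1 shares reads with PHT1;2, so this value is uncertain between them. PPCK1 (AT1G08650), a kinase of PEP carboxylase, was lower (-0.25 ± 0.09, adjusted p = 0.0318), but the call was lost without wt replicate 2 (0.172), without taf12-t1 replicate 1 (0.0996), without taf12-t1 replicate 3 (0.0517) and without taf12-t1 replicate 4 (0.0712), which left 1 lower member without wt replicate 2 and without taf12-t1 replicate 1 or 3.

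Of 24 iron deficiency genes 6 were lower and 1 higher, with a median of -0.18. NAS1 (AT5G04950), a nicotianamine synthase, had 67.8, 77.1, 105 and 91.7 CPM in root labelled taf12-t1 and 303, 271, 236 and 248 CPM in wt, with no overlap (-1.63 ± 0.17, adjusted p = 8.5e-07). Its relative NAS4 (AT1G56430) rose (0.697 ± 0.2035, adjusted p = 0.00635). FIT, the master regulator of iron uptake (listed as FRU, AT2G28160), averaged 41.7 ± 4.58 CPM in taf12-t1 and 76.02 ± 7.71 CPM in wt (-0.86 ± 0.16, adjusted p = 0.000334). BHLH101 (AT5G04150), a partner of FIT, had 0.866, 0.3097, 0.963 and 0.817 CPM in taf12-t1 and 2.5, 3.43, 3.34 and 1.97 CPM in wt (-1.87 ± 0.43, adjusted p = 0.000751), and FRO3 (AT1G23020), a mitochondrial iron reductase, fell to 59.4 ± 5.24 CPM in taf12-t1, against 74.4 ± 6.53 CPM in wt (adjusted p = 0.00203). Of 5 coumarin genes 2 were higher and 0 lower, with a median of 0.27: BGLU42 (AT5G36890) (0.49 ± 0.11, adjusted p = 0.000449) and AT1G28680, held by locus code (0.27 ± 0.07, adjusted p = 0.00332). Of 6 iron storage genes FER3 (AT3G56090), a ferritin, was higher (0.58 ± 0.09, adjusted p = 4.83e-06) and 0 were lower, with a median of 0.15. Without wt replicate 3, or in DESeq2, this count of higher genes was 2. With only the compared groups in the fit, 2 iron storage genes and 1 coumarin gene were called lower.

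**Figure D5:**
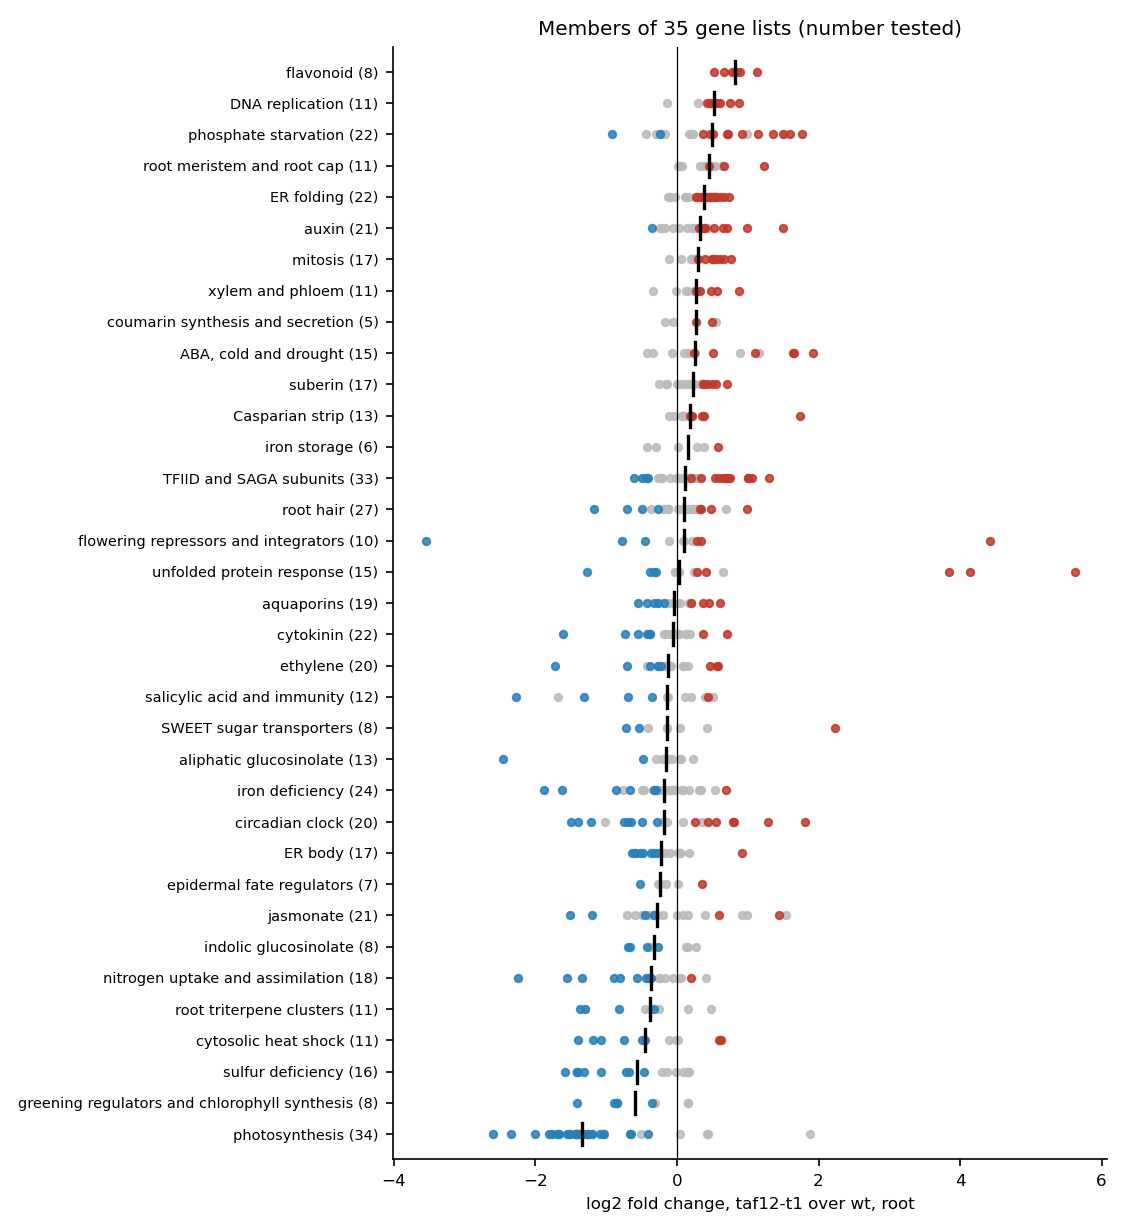
Log2 fold change of taf12-t1 over wt in root for the members of 35 gene lists, ordered from the highest to the lowest median (black bars); red, blue and grey points are called higher, called lower and not called. Medians run from 0.82 for flavonoid synthesis to -1.34 for photosynthesis.

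Flavonoid synthesis had the highest median of the 35 lists. Of 16 members 8 passed the filter on low counts, and these 8 were higher, with a median of 0.82. CHS (AT5G13930), chalcone synthase, the entry enzyme, had 1282, 1152, 1406 and 1279 CPM in root labelled taf12-t1 and 678, 447, 682 and 544 CPM in wt (1.13 ± 0.17, adjusted p = 8.33e-05). F3H (AT3G51240), a hydroxylase on the way to flavonols, had 622, 486, 673 and 576 CPM in taf12-t1 and 359, 266, 376 and 342 CPM in wt (0.81 ± 0.12, adjusted p = 3.74e-05). Every taf12-t1 library exceeded every wt library in both enzymes. The glycosyltransferases UGT78D1 (AT1G30530) (0.89 ± 0.09644, adjusted p = 4.74e-09) and UGT78D2 (AT5G17050) (0.78 ± 0.14, adjusted p = 0.000261) rose with them. The rise was larger in root than in shoot for F3H (1.17 ± 0.16, adjusted p = 1.92e-06) and UGT78D1 (0.84 ± 0.13, adjusted p = 4.02e-06).

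For indolic glucosinolates, sulfur-rich defence compounds, 4 of 8 genes were lower and 0 higher, with a median of -0.33. CYP79B2 (AT4G39950) and CYP79B3 (AT2G22330), which turn tryptophan into the oxime, had -0.69 (adjusted p = 0.00626) and -0.67 (adjusted p = 0.000338). MYB34 (AT5G60890), their activator, averaged 122 ± 8.47 CPM in root labelled taf12-t1 and 164 ± 5.097 CPM in wt (-0.43 ± 0.09, adjusted p = 0.000176). CYP83B1 (AT4G31500), which acts next, had -0.28 ± 0.09 (adjusted p = 0.0151), lost without wt replicate 1 (0.0723) and without taf12-t1 replicate 3 (0.0651). For aliphatic glucosinolates 2 of 13 were lower and 0 higher, with a median of -0.15. These were CYP79F1 (AT1G16410) (0.578, 1.24, 0.321 and 2.04 CPM in taf12-t1 and 3.501, 12.5, 2.72 and 4.85 CPM in wt, adjusted p = 0.00506) and MAM1 (AT5G23010), of chain elongation (-0.48 ± 0.16, adjusted p = 0.0274). MAM1 was lost without wt replicate 4 (0.0894), without taf12-t1 replicate 1 (0.0598), without taf12-t1 replicate 3 (0.0587) and without taf12-t1 replicate 4 (0.0554), which left 1 lower member, and 4 were lower and 1 higher with only the compared groups in the fit.

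In root triterpene gene clusters 4 of 11 genes were lower and 0 higher, with a median of -0.38. MRN1 (AT5G42600), marneral synthase, had 23.4, 32.2, 17.7 and 32.1 CPM in root labelled taf12-t1 and 59.3, 79.7, 57.9 and 75.8 CPM in wt (-1.37 ± 0.33, adjusted p = 0.00395). Its cluster partner CYP71A16 (AT5G42590) had 38.7, 49.2, 37.6 and 46.99 CPM in taf12-t1 and 74.3, 81.2, 66.9 and 82.2 CPM in wt (-0.82 ± 0.24, adjusted p = 0.0144), and CYP705A12 (AT5G42580) had -1.31 ± 0.41 (adjusted p = 0.0184, lost without taf12-t1 replicate 1 (0.0514) and without taf12-t1 replicate 3 (0.0529)). These genes of one cluster were below wt in every library. PEN1 (AT4G15340), an arabidiol synthase, had -0.32 ± 0.13 (adjusted p = 0.0497), and the call was lost in DESeq2 (0.0541), without wt replicate 2 (0.154), without wt replicate 3 (0.0925), without taf12-t1 replicate 1 (0.132), without taf12-t1 replicate 2 (0.0916) and without taf12-t1 replicate 4 (0.108). Without replicate 1 of taf12-t1, 2 members of the list were lower.

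ER bodies are ER-derived stores of beta-glucosidases against herbivores. Of 17 members 8 were lower and 1 higher, with a median of -0.23. NAI1 (AT2G22770), the factor for ER body formation, had 43.3, 43.98, 46.9 and 61.5 CPM in root labelled taf12-t1 and 75.3, 69.4, 75.2 and 79.3 CPM in wt (-0.59 ± 0.14, adjusted p = 0.00173). Its targets NAI2 (AT3G15950) (-0.37 ± 0.09, adjusted p = 0.00299) and MEB2 (AT5G24290), a membrane protein of the bodies (-0.52 ± 0.11, adjusted p = 0.000175), were also lower. BGLU21 (AT1G66270), a glucosidase, averaged 446 ± 42.4 CPM in taf12-t1 and 624 ± 47.1 CPM in wt (-0.49 ± 0.11, adjusted p = 0.000908), and JAL33 (AT3G16450), a jacalin lectin, 333 ± 20.13 CPM in taf12-t1 and 517 ± 17.57 CPM in wt (-0.63 ± 0.13, adjusted p = 0.000723). The member that rose was GLL23 (AT1G54010), a GDSL lipase-like protein (0.92 ± 0.15, adjusted p = 9.99e-05). By the test of the difference, 15 of the 17 members had a lower change in root than in shoot, where the median was 0.86. Of all 20015 genes in that test, 10.5% had a lower change in root.

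Auxin genes were higher in 9 of 21 cases and lower in 1, with a median of 0.32. PIN7 (AT1G23080), an auxin efflux carrier, had 88.1, 106, 101 and 92.3 CPM in root labelled taf12-t1 and 68.01, 71.7, 60.8 and 68.4 CPM in wt (0.52 ± 0.08, adjusted p = 2.11e-06). PIN2 (AT5G57090), the carrier of the outer root layers (0.38 ± 0.08, adjusted p = 0.000415), and IAA2 (AT3G23030), an auxin-induced repressor (0.39 ± 0.08, adjusted p = 0.000202), rose as well. ARF7 (AT5G20730), an auxin response factor, was lower (-0.36 ± 0.07, adjusted p = 9.14e-05). Cytokinin genes had 6 of 22 lower and 2 higher, with a median of -0.05. ARR1 (AT3G16857), a response activator, averaged 73.5 ± 2.45 CPM in taf12-t1 and 98.5 ± 3.87 CPM in wt (-0.42 ± 0.07, adjusted p = 1.2e-05). CKX4 (AT4G29740), a cytokinin oxidase, had 4.33, 5.27, 1.93 and 4.903 CPM in taf12-t1 and 12.2, 9.3, 14.8 and 15.2 CPM in wt (-1.61 ± 0.28, adjusted p = 2.21e-05). The receptor AHK3 (AT1G27320) (-0.39 ± 0.09, adjusted p = 0.000578) and the feedback regulator ARR7 (AT1G19050) (-0.73 ± 0.16, adjusted p = 0.000686) were lower, and ARR3 (AT1G59940), of the same class as ARR7, was higher (0.71 ± 0.18, adjusted p = 0.00156). The count of higher cytokinin genes was 1 with no filter on low counts, with only the compared groups in the fit, and without replicate 1, 3 or 4 of wt or replicate 1 or 2 of taf12-t1.

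Ethylene genes had 3 of 20 higher and 6 lower, with a median of -0.13. Lower were EDF4 (AT1G13260), a transcription factor downstream of ethylene (6.06, 6.195, 7.38 and 6.95 CPM in root labelled taf12-t1 and 30.01, 21.8, 25.5 and 13.5 CPM in wt, adjusted p = 7.52e-05), EIN3 (AT3G20770), the main activator (-0.27 ± 0.07, adjusted p = 0.0014), and CTR1 (AT5G03730), the kinase that holds the pathway off (-0.26 ± 0.07, adjusted p = 0.00176). Higher were HCHIB (AT3G12500), a basic chitinase (0.57 ± 0.09, adjusted p = 9.36e-06), HEL (AT3G04720), a hevein-like defence protein (0.58 ± 0.11, adjusted p = 0.000263), and EDF2 (AT1G68840) (0.47 ± 0.09, adjusted p = 0.000138). Jasmonate genes had 2 of 21 higher and 4 lower, with a median of -0.28. VSP1 (AT5G24780), a jasmonate-induced storage protein, had 29.4, 36.5, 28.6 and 33.7 CPM in taf12-t1 and 102, 85.04, 87.6 and 92.8 CPM in wt (-1.51 ± 0.18, adjusted p = 4.77e-06). MYC2 (AT1G32640), the central activator, was lower (-0.32 ± 0.09605, adjusted p = 0.00878), while CYP94B3 (AT3G48520), which inactivates the hormone (0.59 ± 0.16, adjusted p = 0.00352), and LOX4 (AT1G72520), a lipoxygenase (1.44 ± 0.4046, adjusted p = 0.00477), were higher. Without wt replicate 2 or taf12-t1 replicate 1, 2 jasmonate genes were lower.

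Salicylic acid and immunity genes had 4 of 12 lower and 1 higher, with a median of -0.14. WRKY70 (AT3G56400), a transcription factor of this pathway, had 4.04, 4.65, 7.38 and 5.52 CPM in root labelled taf12-t1 and 19.5, 26.4, 41.6 and 18.4 CPM in wt. The wt libraries spread widely but all lay above taf12-t1 (-2.28 ± 0.44, adjusted p = 0.000622). PAD4 (AT3G52430), a lipase-like immune regulator, averaged 31.6 ± 3.58 CPM in taf12-t1 and 51.4 ± 5.38 CPM in wt (-0.69 ± 0.09535, adjusted p = 4.96e-07). ALD1 (AT2G13810), of pipecolic acid synthesis (-1.31 ± 0.38, adjusted p = 0.00535, lost without taf12-t1 replicate 4 (0.0522)), and NPR1 (AT1G64280), a salicylic acid receptor (-0.36 ± 0.11, adjusted p = 0.0077, lost without wt replicate 3 (0.0558)), were lower. ICS1 (AT1G74710), which makes salicylic acid, was higher (0.44 ± 0.15, adjusted p = 0.0179, lost without wt replicate 4 (0.0606), without taf12-t1 replicate 1 (0.0503) and without taf12-t1 replicate 3 (0.0916)). The count of higher members was 0 in those fits and 2 without wt replicate 1 or taf12-t1 replicate 2 or with only the compared groups in the fit.

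Genes induced by abscisic acid (ABA), cold and drought had 6 of 15 higher and 0 lower, with a median of 0.26. RD22 (AT5G25610), a dehydration-induced protein, had 46.2, 37.8, 43.98 and 44.7 CPM in root labelled taf12-t1 and 12, 16.1, 7.94 and 8.78 CPM in wt (1.92 ± 0.2019, adjusted p = 9.29e-08). RD29A (AT5G52310), a standard stress reporter, had 48.8, 40.3, 63.2 and 51.9 CPM in taf12-t1 and 12.8, 13.8, 18.18 and 19.7 CPM in wt (1.65 ± 0.24, adjusted p = 3.96e-05). The small hydrophilic proteins KIN1 (AT5G15960) (1.64 ± 0.22, adjusted p = 1.15e-05) and KIN2 (AT5G15970) (1.11 ± 0.16, adjusted p = 3.42e-05) rose too. All 4 genes were above wt in every library. The change over wt was higher in root than in shoot for RD22 (1.75 ± 0.24, adjusted p = 3.37e-06), RD29A (1.25 ± 0.32, adjusted p = 0.00484) and KIN2 (0.82 ± 0.29, adjusted p = 0.0409), and KIN1 had 1.38 ± 0.71 (adjusted p = 0.172). It was lower in root for DREB2A (AT5G05410), a drought-responsive transcription factor (-1.64 ± 0.43, adjusted p = 0.00459), and COR47 (AT1G20440), a dehydrin (-0.47 ± 0.17, adjusted p = 0.0424), both named after their values were seen. The KIN2 difference was lost with DESeq2's size factors (0.0539), with only the compared groups (0.115) and, in shoot, without wt replicate 2 or 3 or taf12-t1 replicate 1, 2 or 4. In root it was lost without wt replicate 1, 2 or 4 or taf12-t1 replicate 1, 3 or 4 (adjusted p over these single libraries 0.0509 to 0.124). The COR47 difference was lost with no filter on low counts (0.0614) and, in shoot, without wt replicate 1, 3 or 4 or taf12-t1 replicate 1, 2 or 3. In root it was lost without wt replicate 3 or 4 or taf12-t1 replicate 1 or 2 (0.0511 to 0.12).

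Cytosolic heat shock genes had 6 of 11 lower and 2 higher, with a median of -0.45. The 2 higher genes were HSC70-1 and HSP90.2. HSC70-1 (AT5G02500), the main cytosolic Hsp70, had 4108, 3848, 3840 and 4106 CPM in root labelled taf12-t1 and 2569, 2813, 2272 and 2650 CPM in wt (0.63 ± 0.06, adjusted p = 3.96e-10). HSP90.2 (AT5G56030), which shares reads with its near-identical copies, had 0.59 ± 0.07 (adjusted p = 1.14e-08). The heat-induced HSP90.1 (AT5G52640) had 147, 143, 96.3 and 179 CPM in taf12-t1 and 348, 361, 236 and 350.1 CPM in wt, the opposite order (-1.19 ± 0.21, adjusted p = 0.000376). HSFA7A (AT3G51910), a heat shock factor, was lower as well (-0.74 ± 0.13, adjusted p = 1.52e-05).

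Membrane transport lists were mixed. Of 19 aquaporins 4 were higher and 5 lower, with a median of -0.04. TIP4;1 (AT2G25810), of the vacuole membrane, rose by 0.37 ± 0.09 (adjusted p = 0.000907). The plasma membrane channels PIP1;5 (AT4G23400) (-0.42 ± 0.09872, adjusted p = 0.00134), PIP1;3 (AT1G01620) (-0.33 ± 0.08, adjusted p = 0.00205) and PIP2;4 (AT5G60660) (-0.56 ± 0.14, adjusted p = 0.00424) were lower in root labelled taf12-t1. Without wt replicate 4 or taf12-t1 replicate 1 the higher count was 2, and without wt replicate 3 the lower count was 3. Of 8 SWEET sugar transporters 1 was higher and 2 lower, with a median of -0.14. SWEET14 (AT4G25010) had 17.3, 17.04, 12.2 and 14.9 CPM in taf12-t1 and 3.001, 3.79, 3.13 and 2.88 CPM in wt, with the groups far apart (2.24 ± 0.26, adjusted p = 1.31e-08). The fructose transporters of the vacuole membrane, SWEET17 (AT4G15920) (-0.54 ± 0.09, adjusted p = 2.07e-05) and SWEET16 (AT3G16690) (-0.73 ± 0.19, adjusted p = 0.00259), were lower. With no filter on low counts 2 SWEET genes were higher.

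Genes with a symbol, no overlap between the groups and a mean log2 CPM of at least 1 over the 20 root libraries were ranked. This mean includes the other genotypes, so a ranked gene can be near 0 in the groups compared. BIP3, for one, averaged 1.265 CPM in taf12-t1 and 0 CPM in wt. The 12 genes with the largest rises included BIP3, FLC, NAC103 and SEC31A. The first by size was MRD1, with 315 counts over the libraries labelled taf12-t1 and 2 over wt, a ratio of 263 (95% counting interval 72.3 to 2184). ACC2 (AT1G36180), a homomeric acetyl-CoA carboxylase, had 167, 173, 95.02 and 191 CPM in taf12-t1 and 12.5, 14.7, 10.7 and 11.7 CPM in wt. Replicate 3 of taf12-t1 was the lowest of its group and still far above wt (3.65 ± 0.21, adjusted p = 1.13e-09). NAC044 (AT3G01600), a NAC factor of the DNA damage response, had 9.82, 11.2, 4.49 and 9.19 CPM in taf12-t1 and 0, 1.101, 0.627 and 1.44 CPM in wt (3.21 ± 0.37, adjusted p = 1.86e-08). chr31 (AT1G05490), a SNF2-family chromatin remodeller, had 13.9, 11.8, 5.78 and 12.7 CPM in taf12-t1 and 1.5, 1.71, 1.25 and 2.097 CPM in wt (2.699 ± 0.28, adjusted p = 2.24e-09). In both genes replicate 3 of taf12-t1 was again the lowest. NUC-L2 (AT3G18610), the second nucleolin gene, which acts in ribosomal RNA synthesis, had 39.6, 40.6, 27.9 and 42.1 CPM in taf12-t1 and 6.001, 6.85, 3.76 and 7.21 CPM in wt (2.62 ± 0.17, adjusted p = 8.28e-14). ICL (AT3G21720), isocitrate lyase of the glyoxylate cycle, had 25.7, 22.3, 15.4 and 39.8 CPM in taf12-t1 and 3.001, 6.61, 5.01 and 1.97 CPM in wt (2.65 ± 0.51, adjusted p = 0.000709). The remaining rises were CP1 (AT4G36880), a papain-like protease (2.699 ± 0.21, adjusted p = 6.88e-10), and NOGC1 (AT1G62580) (2.48 ± 0.54, adjusted p = 0.000966).

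The 12 largest falls by the same rule included SOC1. PMI2 (AT1G66840), which acts in chloroplast movement, had 1 count over the libraries labelled taf12-t1 and 47 over wt, a 28.1-fold lower level (95% counting interval 4.804 to 1133). RLP3 (AT1G17250), a receptor-like protein, had 3 counts in taf12-t1 and 74 in wt, 14.8-fold lower (4.86 to 73.2). EARLI1 (AT4G12480), a cell wall lipid transfer-like protein, had 1.16, 0.3097, 0.963 and 3.47 CPM in taf12-t1 and 37.01, 19.5, 28.2 and 30.8 CPM in wt (-4.04 ± 0.34, adjusted p = 1.26e-08). DUR3 (AT5G45380), the high-affinity urea transporter, had 6.06, 5.27, 4.49 and 6.13 CPM in taf12-t1 and 36.8, 44.3, 40.96 and 44.3 CPM in wt (-2.91 ± 0.17, adjusted p = 1.17e-14). GLP9 (AT4G14630), a germin-like protein, had 1.73, 1.55, 2.57 and 2.25 CPM in taf12-t1 and 20.5, 15.7, 31.6 and 18.7 CPM in wt (-3.37 ± 0.28, adjusted p = 2.53e-11). The groups were clear of each other in these 3 genes. MLP28 (AT1G70830), a major latex protein, had 2.89, 2.79, 0.321 and 1.63 CPM in taf12-t1 and 17.2, 29.7, 3.34 and 17.2 CPM in wt (-3.18 ± 0.77, adjusted p = 0.00379), with a narrow gap at wt replicate 3. PETE1 (AT1G76100), a plastocyanin, had 4 counts in taf12-t1 and 64 in wt (adjusted p = 6.03e-05). PMI2 and PETE1 were far more abundant in shoot. PMI2 averaged 87.4 CPM in taf12-t1 shoot and 109.8 CPM in wt shoot, and PETE1 149.7 and 193 CPM. Their means in wt root were 1.96 and 2.56 CPM. The part of shoot tissue in these 2 falls was not tested. The cytochromes P450 CYP71A20 (AT4G13310) (-2.804 ± 0.38, adjusted p = 3.13e-07) and CYP71B3 (AT3G26220) (-2.72 ± 0.33, adjusted p = 4.15e-08) fell too. BCA3 (AT1G23730), a carbonic anhydrase (-2.77 ± 0.46, adjusted p = 9.75e-06), and HCS2 (AT1G37150), a holocarboxylase synthase (-2.87 ± 0.61, adjusted p = 0.000284), complete the set. In root labelled nbr6-t1 the log2 fold change over wt was -1.87 for GLP9, -2.02 for MLP28, -1.95 for CYP71A20 and -1.71 for BCA3. For the other falls of the set it ran from -0.48 (SOC1) to 1.46 (PMI2).

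Root labelled taf12-t1 was next set against root labelled nbr6-t1. Whether the root libraries labelled nbr6-t1 carry their insertion was not tested. TAF12B had 63.7, 58.6, 60.7 and 52.3 CPM there, not below the 45.5, 53.2, 56.8 and 56.8 CPM of wt. In shoot TAF12B had 15.3 to 21.4 CPM in nbr6-t1 and 55.5 to 69.6 CPM in wt. As for TAF12, full-length and partial transcripts of an insertion allele cannot be told apart by these counts. Of the 18745 genes, 8854 (47.2%) differed, 4636 higher (24.7%) and 4218 lower (22.5%) in taf12-t1. This comparison shares the taf12-t1 libraries with the one against wt. SAHH2 (AT3G23810), an S-adenosylhomocysteine hydrolase, averaged 641 ± 23.62 CPM in taf12-t1 and 151 ± 12.5 CPM in nbr6-t1 (log2 difference 2.08 ± 0.09, adjusted p = 7.75e-18). HCHIB averaged 163 ± 17.1 CPM in taf12-t1 and 34.5 ± 4.44 CPM in nbr6-t1 (2.25 ± 0.1038, adjusted p = 9.6e-17). LCR68 (AT2G02130), a defensin-like protein (1.73 ± 0.08, adjusted p = 9.6e-17), and NPX1 (AT5G63320) (1.34 ± 0.07, adjusted p = 9.6e-17) were also higher in taf12-t1. Lower were LNK2, at 95.9 ± 15.4 CPM in taf12-t1 and 328 ± 23.4 CPM in nbr6-t1 (-1.78 ± 0.08, adjusted p = 4.83e-18), LHCA4 (-1.76 ± 0.09749, adjusted p = 3.22e-16), PRR7 (-1.81 ± 0.12, adjusted p = 1.16e-13) and LigB (AT4G15093) (-1.32 ± 0.08, adjusted p = 1.99e-14). Over wt, root labelled nbr6-t1 had log2 fold changes of -1.15 for SAHH2, -1.69 for HCHIB, -0.89 for LCR68 and -0.0008 for NPX1. For LNK2, LHCA4, PRR7 and LigB these were 0.28, 0.26, 0.41 and 0.10. The gaps between the lines therefore do not measure the change of taf12-t1 alone. By list, 31 of 34 photosynthesis genes were lower than in nbr6-t1 and 0 higher. For ER folding, 16 of 22 genes were higher than in nbr6-t1 and 2 lower, and all 8 flavonoid genes were higher. Of 16 sulfur genes 9 were higher than in nbr6-t1 and 2 lower, while against wt 0 were higher and 8 lower.

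The last comparison asked whether the difference between the labels taf12-t1 and wt was unequal in root and shoot. Of 20015 genes tested over 40 libraries, 4072 (20.3%) were called, 1961 with a higher change in root (9.8%) and 2111 with a lower one (10.5%). With only the 4 compared groups in the fit, 3938 were called, 1308 higher and 2630 lower, so the higher share was 33.2% there and 48.2% in the fit of all 40 libraries. TAF12 itself differed (1.55 ± 0.23, adjusted p = 2.67e-06). EMB1030 (AT5G22800), an alanyl-tRNA synthetase, had a change of 2.19 in root and 0.22 in shoot (1.98 ± 0.16, adjusted p = 1e-11), with 49.01 ± 10.4 CPM in taf12-t1 root and 10.7 ± 1.43 CPM in wt root. DGR2 (AT5G25460) had 0.66 in root and -0.77 in shoot (1.43 ± 0.14, adjusted p = 2.89e-10). XTH4 (AT2G06850), a wall-loosening transglucosylase, had 1.17 in root and -0.15 in shoot (1.33 ± 0.14, adjusted p = 2.58e-09). PKp3 (AT1G32440), a plastidic pyruvate kinase, had 0.07 in root, where it was not called (adjusted p = 0.554), and -1.21 in shoot (1.27 ± 0.12, adjusted p = 2.89e-10).

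The 4 genes with a symbol and the smallest adjusted p on the lower side belong to photosynthesis and photorespiration. AGT (AT2G13360), a peroxisomal aminotransferase of photorespiration, had 3.18, 6.505, 8.35 and 8.17 CPM in root labelled taf12-t1 and 28.8, 35.5, 39.3 and 44.8 CPM in wt root, with a log2 fold change of -2.49 in root and 0.32 in shoot (-2.81 ± 0.24, adjusted p = 1.35e-10). PSBO2 had -2.35 in root and -0.34 in shoot (-2.01 ± 0.18, adjusted p = 1.35e-10), and PSBO1 -1.76 in root and -0.03 in shoot (-1.73 ± 0.16, adjusted p = 1.35e-10). PSBR (AT1G79040), another photosystem II subunit, had -1.39 in root and 0.14 in shoot (-1.52 ± 0.14, adjusted p = 1.35e-10). In all, 24 of 34 photosynthesis genes had a lower change in root and 1 a higher one. By list, lower changes in root were called for 12 of 13 aliphatic glucosinolate genes, 9 of 18 nitrogen genes and 10 of 20 clock genes. Higher changes in root were called for 4 of 8 flavonoid genes and 4 of 21 auxin genes. ER folding differed for 1 of 22 members, and DNA replication for 0 of 11, although a p that misses the threshold does not show that the changes were equal.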

How the data were processed

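RNA-seq of Arabidopsis root and shoot seedlings was deposited as 1 table per library. Per the submitters' processing notes, reads were handled with Trimmomatic 0.39 and kallisto 0.44.0. The deposited expected counts and TPM values were made by the authors of 27655 transcripts, 1 per locus; the build and annotation behind them were not given in the sources used here.

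Expected counts were rounded to whole numbers and filtered with filterByExpr. They were scaled by TMM and tested with edgeR 4.0.16 (R 4.3.3), a robust quasi-likelihood fit of group means with Benjamini-Hochberg adjustment at 0.05. The 20 root libraries shared 1 fit for both root comparisons, and all 40 shared 1 for root against shoot. Standard errors are the log2 fold change over the square root of F. Symbols came from the reference annotation. An expected count that is not whole marks reads divided among transcripts. Besides the genes said above to share reads, this held for further named genes in some of the 8 libraries compared. It held in 4 libraries for BGLU21 and AT5G50665, in 3 for EXT12 and MLP28, and in 2 for GLN1;1. In 1 library it held for HCS2, CTR1, LHCB1.1, RBCS1A and RBCS2B. The procedure was tested on simulated data: at 1.5, 2 and 4-fold it recovered 55.2, 77.6 and 100% of changed genes for taf12-t1 against wt. There were 8 false calls among 18494 genes. Only 67, 67 and 66 genes were changed at these folds, far fewer than were called in the data, so the rates need not hold there. The changed genes were drawn from those with a mean log2 CPM above 1, so the rates leave out genes of lower level.

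The genes and lists were chosen with earlier results of these data known. Named were TAF12, TAF12B and neighbours of TAF12. Of each list, up to 4 members were named by smallest adjusted p and up to 3 more for opposite directions. Also named were the 12 largest changes each way with a symbol and no overlap, and 4 each way in the other comparisons. The 12 each way needed a mean log2 CPM of at least 1 over the 20 root libraries. Alternatives were DESeq2 1.42.0, its size factors, no filter, only the compared groups, a replicate block, a threshold of 0.01 and leaving out each library. Intervals on ratios are exact and cover counting error only.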

Additional observations from a re-analysis of the deposited data

Results flagged for a closer look

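Some libraries stood apart from the other 3 of their group in genes named above. Of 390 groups of 4 libraries examined, 17 had such a value, and chance alone flags about 1 in 20 groups. In root labelled taf12-t1, replicate 3 was high in OMR1 (69.02 CPM, the others 66.1 to 66.6 CPM) and FLM (58.42, the others 48.5 to 49.9 CPM), and low in CESA8 (41.09, the others 49.7 to 51.1 CPM) and CYCB1;2 (33.71, the others 39.6 to 40.7 CPM). Replicate 1 of taf12-t1 was high in KN (66.12, the others 60.7 to 61.1 CPM) and GRP7 (812.2, the others 700 to 718 CPM), and low in ABCG20 (28.01, the others 35.8 to 37.2 CPM). Replicate 2 of taf12-t1 was low in PIP2;4 (49.87, the others 55.4 to 56.5 CPM). In wt root, replicate 3 was low in KN (37.41, the others 43.9 to 44.3 CPM), HSP90.2 (677.7, the others 832.5 to 857.9 CPM), HSP90.1 (235.7, the others 348 to 361 CPM), GRP7 (369.7, the others 436 to 446 CPM) and DGR2 (579.3, the others 738 to 766 CPM). It was high in FAR1 (98.63, the others 71.1 to 74.1 CPM) and PAD4 (59.35, the others 48.0 to 49.9 CPM). Replicate 1 of wt was high in NRT3.1 (54.26, the others 39.1 to 41.2 CPM), and replicate 2 of wt was high in SMB (9.177, the others 6.06 to 6.55 CPM).

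The difference of root minus shoot in the change of taf12-t1 over wt was itself tested. It passed the threshold for 74 of the 193 genes named in the comparison of taf12-t1 with wt in root. Of these, 21 had a higher and 53 a lower change in root. Over all 20015 genes tested the shares were 20.3% called, 9.8% higher and 10.5% lower. The named genes were chosen by their root change or by this same test, so their count is not an independent result. The log2 differences of root minus shoot are given below for only a part of the named genes past the threshold. The change was higher in root for TAF12 (1.553), RD22 (1.745), RD29A (1.254), KIN2 (0.8231), UGT78D1 (0.8411), F3H (1.165), ACC2 (2.182), EMB1030 (1.98), DGR2 (1.432), PKp3 (1.275) and XTH4 (1.326). It was lower in root for DREB2A (-1.644), COR47 (-0.4748), NAS1 (-1.608), NRT3.1 (-2.482), LHCA4 (-0.948), PSBO2 (-2.008), PSBO1 (-1.73), PSBR (-1.522), SOC1 (-2.804), PRR7 (-1.307), ELF4 (-3.147), GRP7 (-1.612), PMI2 (-4.001) and AGT (-2.813).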

How the results depend on the processing

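The count of genes called for taf12-t1 against wt in root (7356) ran from 6331 to 6989 without 1 library and was 7315 with DESeq2's size factors, 7331 with no filter, 6900 in DESeq2, 7536 with only the compared groups and 5115 at an adjusted p under 0.01. For taf12-t1 against nbr6-t1 (8854) it ran from 7853 to 8372 without 1 library and was 6528 at 0.01. For root against shoot (4072) it ran from 3386 to 4025 without 1 library and was 2320 at 0.01. Of 193 named genes 189 were called at 0.05, and 168 of these stayed called at 0.05 in every alternative fit that tested them. Without some library 21 were lost, and 5 under another alternative. The threshold of 0.01 was applied to the counts of called genes only. With only the compared groups in the fit, BIP3, SEC31A, BHLH101, WOX5, PMI2, PETE1 and HCS2 did not pass the filter on low counts and were not tested. TAF12B changed sign without wt replicate 3 (0.005472), wt replicate 4 (0.01482) or taf12-t1 replicate 2 (0.02876), within a range of -0.07708 to 0.02876 without 1 library.

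Same-numbered replicates of taf12-t1 and wt root did not deviate together (correlations 0.07, -0.01, 0.09 and -0.01). No label says that a number marks a shared batch, and correlations over many genes cannot exclude a batch that moves few genes. With the replicate block the counts were 7419, 8862 and 4002. The block also ended the calls of PPCK1 (adjusted p = 0.0504) and AT5G50665 (0.0509), made that of SMB (0.0495) and left 1 phosphate starvation gene lower. At the depth of these libraries, 1.5-fold changes simulated in 67 genes were recovered for 55.2% in root and 29.9% in the root against shoot test. Each gene was simulated at its mean level over all libraries of the fit, so root and shoot had equal levels there, unlike in the data. Far fewer genes changed in the simulation than were called in the data, and the adjusted p depends on that share. The share of changes missed in the data therefore cannot be read from these rates.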

Other observations

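Genes without a symbol in the reference annotation were read after their values were seen, and several were at or near 0 in 1 group of root libraries. AT1G64795 had 0 counts over the 4 libraries labelled taf12-t1 and 227 over wt, at least 45.25-fold lower against 3 counts over the group. It was also at or near 0 in the other non-wt root groups, with means of 0, 0.515 and 1.23 CPM in bz1728, nobiro6 and nbr6-t1. AT1G75945 had 0 counts in taf12-t1 and 189 in wt, at least 37.7-fold lower, and it was also at 0 in nbr6-t1 root. AT5G50665 had 0 counts in taf12-t1 and 80 in wt, at least 15.95-fold lower, a call lost without wt replicate 1 (0.06), without wt replicate 3 (0.0616), without taf12-t1 replicate 1 (0.063), without taf12-t1 replicate 2 (0.0594), without taf12-t1 replicate 3 (0.0574) and without taf12-t1 replicate 4 (0.0767). AT2G04190, annotated as a TRAF-like protein, had 1 count in taf12-t1 and 116 in wt, 69.4-fold lower (95% counting interval 12.2 to 2763).

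Higher were AT2G19910, annotated to the RNA-dependent RNA polymerase family, with 17.03, 20.13, 11.6 and 16.6 CPM in root labelled taf12-t1 and 0.25, 0.245, 1.25 and 0 CPM in wt. AT4G33720, of the CAP superfamily, had 168, 290.2, 145 and 236 CPM in taf12-t1 and 8.25, 11.01, 13.2 and 11.7 CPM in wt. AT4G31520, of the SDA1 family, had 15.9, 18.9, 22.5 and 19.4 CPM in taf12-t1 and 0.25, 1.101, 0.627 and 1.57 CPM in wt. None of the 3 overlapped between the groups. The uncharacterized AT5G07572 rose by 4.51 ± 0.2967 (adjusted p = 7.03e-14 in edgeR's quasi-likelihood test).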
